A study of Mus musculus with 10 samples.

Results

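Cathepsins and legumain are the main proteases of the lysosome, and 9 of their genes, Ctsa, Ctsb, Ctsc, Ctsd, Ctsh, Ctsl, Ctss, Ctsz and Lgmn, were followed here in mouse microglia that lacked, or had lost a copy of, the lipid receptor Trem2. The 9 were picked by gene name from 24033 usable names, and all 9 passed the filter on low values that left 13621 genes for testing. Microglia were purified from C57BL/6 mice aged 3 to 5 months with magnetic beads against CD11b, a myeloid integrin subunit that neutrophils, monocytes and border macrophages also carry. There were 3 KO libraries (TREM2-/-, 1 female and 2 male), 3 Het libraries (TREM2+/-, 2 female and 1 male) and 4 WT libraries (TREM2+/+, 2 female and 2 male), which are named below by their label numbers. No treatment, injury or tau transgene is given in the labels of these libraries. The labels do not say which part of Trem2 the allele removes, nor whether a library came from a single mouse or a pool. P-values therefore speak only of how far these libraries differ from each other, which may be technical in part.

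Values are RPKM, read counts scaled by the authors to gene length and library size, so levels of different genes can be set side by side. Trem2 checked the labels, at 28.3, 21.4 and 23.9 RPKM in KO libraries 6, 9 and 12, 105, 85.2 and 91.7 RPKM in Het libraries 5, 8 and 11, and 170, 185, 237 and 174 RPKM in WT libraries 1, 4, 7 and 10. The libraries held 17.2 M to 44.0 M reads (M for mega), as recovered from the RPKM steps. KO libraries 9 and 12, Het library 11 and WT library 10 formed a deeper set (36.3 M to 44.0 M) and the other 6 a shallower one (17.2 M to 21.96 M). Microglial identity genes were abundant in every library, their 10 summed levels reaching 9783 to 11057 RPKM in KO, 9084 to 10685 RPKM in Het and 9620 to 10992 RPKM in WT libraries. KO library 6 stood apart in neutrophil markers. The 14 measured ones summed to 2303 RPKM there and to 372 and 382 RPKM in the other KO libraries, against 144 to 358 RPKM in Het and 104 to 224 RPKM in WT libraries. Of the 14, the genes of the granule enzymes Elane and Mpo, picked after their values were seen, reached 6.53 and 6.02 RPKM in KO library 6. They reached at most 0.849 and 0.537 RPKM in the other 9 libraries. The most abundant marker, S100a9, was at 1040, 134 and 134 RPKM in KO libraries 6, 9 and 12. It was at 52.2 to 155 RPKM in Het and 34.6 to 81.8 RPKM in WT libraries. Mmp9, with the smallest KO against WT p of the list, was at 7.01, 2.43 and 2.83 RPKM in these KO libraries. It was at 1.04 to 1.91 RPKM in Het and 0.584 to 1.39 RPKM in WT libraries. In KO against WT, 10 of 10 tested neutrophil markers and 9 of 9 tested monocyte markers had positive differences (median log2 2.04 and 0.98). Of these, 0 were called by limma or limma-voom, and 9 and 6 were at an unadjusted p under 0.05. Over all genes tested, 5.13% had such a p in KO against WT and 2.75% in Het against WT, in either direction. Monocyte markers of KO library 6 summed to 236 RPKM, against 54.0 to 87.5 RPKM in the other 9 libraries, whereas that library's border macrophage markers (95.3 RPKM) lay within the range of the rest (84.7 to 174 RPKM). Endothelial markers summed to 144 RPKM in KO library 6 and 85.1 to 128 RPKM in the other 9. Border macrophage markers had positive differences in 7 of 7 in KO against WT (median log2 0.21) and in Het against WT (0.27), and endothelial markers in 6 of 6 in KO against WT (0.17), with 0 called by limma or limma-voom. At an unadjusted p under 0.05 there was 1 border macrophage marker in Het against WT and 0 in the other 2 of these counts. The part of these cells in the protease levels was not tested. RNA of other myeloid cells that carry these proteases was measured together with that of microglia, and in bulk RNA fewer cells of a type and less RNA per cell cannot be told apart.

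Lysosomal proteases are made as inactive precursors and reach acidic compartments by mannose 6-phosphate receptors and other sorting routes. There the propeptide is removed, often by another member of the group, and the mature enzymes break down proteins taken up by phagocytosis or delivered by autophagy. In microglia they digest cell debris and aggregated protein, and they prepare peptides for presentation on MHC class II. Cystatins hold escaped or excess activity in check.

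The 9 transcripts were very abundant, and Ctsd and Ctss dominated them. Together the group took 1.58% to 1.68% of all reads in KO, 1.64% to 1.71% in Het and 1.52% to 1.73% in WT libraries. Its summed level was 8287, 8631 and 8048 RPKM in KO libraries 6, 9 and 12, 8443, 8508 and 8860 RPKM in Het libraries 5, 8 and 11, and 8272, 7874, 8682 and 8869 RPKM in WT libraries 1, 4, 7 and 10. The highest and the lowest of the 10 sums thus differed by 1.13-fold, and the genotypes overlapped. Ctsd and Ctss supplied 77.9% to 79.4% of that sum in KO, 78.4% to 79.3% in Het and 76.3% to 78.8% in WT libraries. Ctsd ranked 5th to 7th and Ctss 6th to 10th among all genes of a library. Lgmn ranked 50th to 69th, Ctsl 69th to 119th and Ctsb 71st to 98th. Ctsh ranked 144th to 203rd, Ctsz 190th to 285th, Ctsa 239th to 374th and Ctsc 279th to 354th. Between 4002 reads (Ctsz) and 341126 reads (Ctsd) stood behind each value, so counting error was small beside the spread between libraries.

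**Figure D1:**
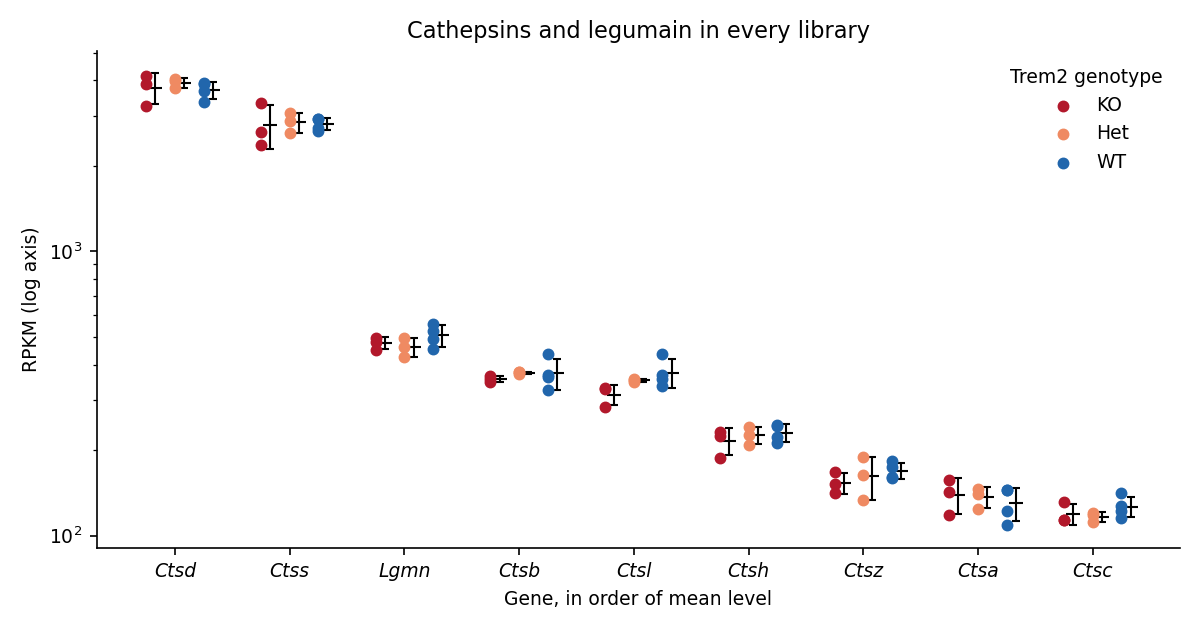
RPKM of the 9 genes (log axis), one point per library, for KO (n = 3), Het (n = 3) and WT (n = 4); bars are the mean and SD. Ctsd and Ctss lie far above the other 7 genes, and within each gene the genotypes lie close together, with Ctsl in KO the lowest group of that gene.

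Of 8 neighbouring pairs in the order of the levels, 4 kept their order in every library. Ctss was 4.76 to 7.38 times Lgmn in every library, and Lgmn was above Ctsb, Ctsl above Ctsh and Ctsh above Ctsz in 10 of 10 libraries. Ctsd was above Ctss in 9 of 10, the exception being KO library 6. Other neighbours changed places between libraries. Ctsb was above Ctsl in 7 of 10 libraries, Ctsz above Ctsa in 8 of 10 and Ctsa above Ctsc in 8 of 10, so the order of those pairs was not the same in every library. Differences between genes were not tested. Over the 10 libraries the SD of log2 RPKM was 0.11 for Ctsb, Ctsc, Ctsd and Lgmn, 0.12 for Ctsh, 0.14 for Ctss, 0.16 for Ctsl and Ctsz and 0.17 for Ctsa. The median over the 399 other genes with a mean of at least 100 RPKM was 0.16.

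**Figure D2:**
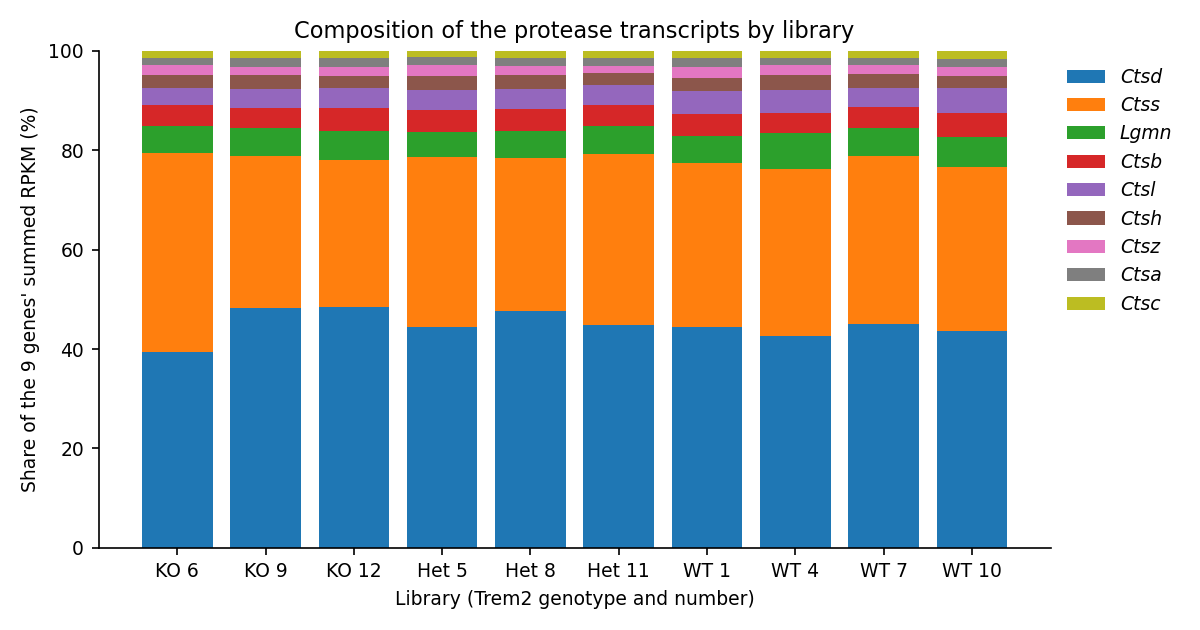
Share of each gene in the summed RPKM of the 9 genes (%), one stacked bar per library, KO, Het and WT from left to right. Ctsd takes 39.3% to 48.4% and Ctss 29.5% to 40.1% of the bar, with the lowest Ctsd and the highest Ctss share in KO library 6.

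No member passed the test between genotypes. By limma on log2(RPKM + 0.5), with sex as a term and Benjamini-Hochberg adjustment over 13621 genes, 0 of 9 members passed an adjusted p under 0.05 in KO against WT, where 0.00734% of all genes (Trem2 alone) did. In Het against WT 0 of 9 passed (0% of all genes), and in KO against Het 0 of 9 (0.00734% of all genes, again Trem2). At an unadjusted p under 0.05 the counts were 1 of 9 in KO against WT (Ctsl, lower; 5.13% of all genes), 0 of 9 in Het against WT (2.75%) and 0 of 9 in KO against Het (3.35%). limma-voom on recovered reads gave the same counts, with 0 members called in each. The comparisons share libraries, so they are not separate evidence.

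The size of a difference that these libraries leave possible can be read from its 95% interval, which holds for the reported fit. For Ctsd and Ctss the width depended on the fit. In KO against WT their SE was 0.144 and 0.138 in the reported fit and 0.287 and 0.242 without the filter on low values. With limma-voom it was 0.085 and 0.091. The intervals below are those of the reported fit. In KO against WT the intervals of the 9 fold changes all lay between 0.713 and 1.32, in Het against WT between 0.779 and 1.34 and in KO against Het between 0.737 and 1.28. Member fold changes on the log2 scale had a median of -0.08 in KO against WT (2 positive, 7 negative; 0.03 over all genes tested), -0.02 in Het against WT (3 positive, 6 negative; 0.001 over all genes) and -0.03 in KO against Het (4 positive, 5 negative; 0.03 over all genes).

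**Figure D3:**
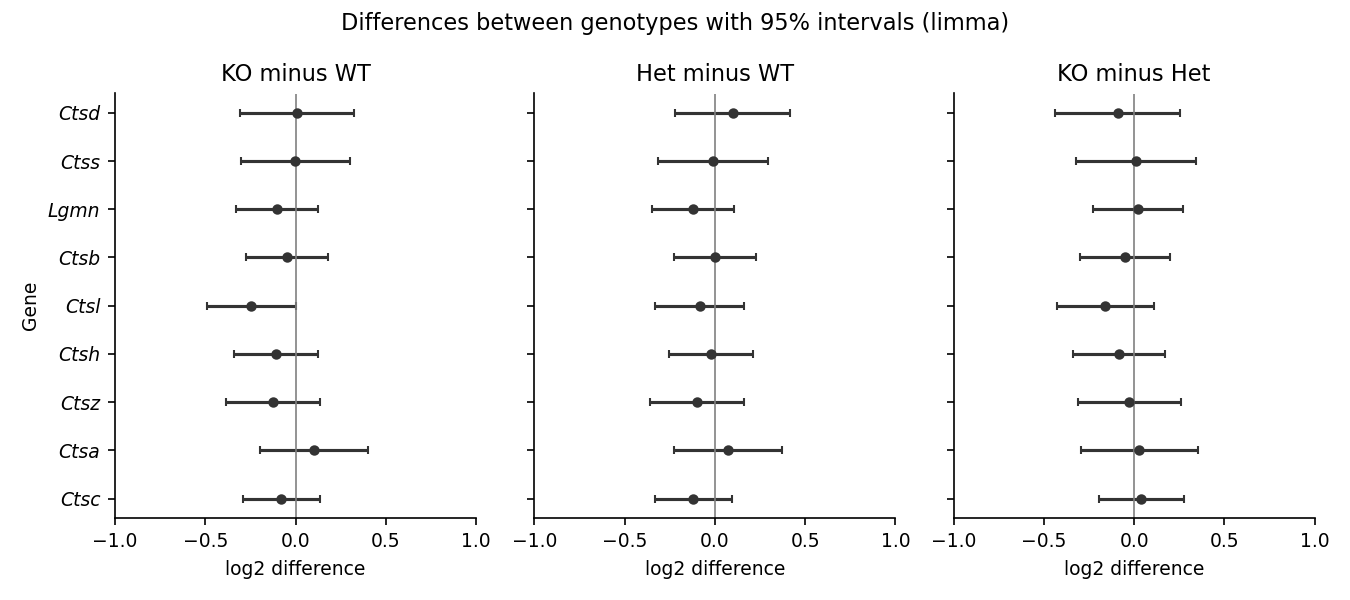
Fitted log2 differences of the 9 genes (points) with 95% intervals (bars) for KO minus WT, Het minus WT and KO minus Het. All intervals lie within 0.5 of 0, and only that of Ctsl in KO minus WT (-0.49 to -0.0002) does not cross 0.

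Among the endopeptidases, which cut within a protein chain, Ctsd is the aspartic protease of the group and the other cathepsins of this class are cysteine proteases. Ctsd (chromosome 7, 142375911 to 142388038, minus strand, GRCm38) was at 3258, 4161 and 3898 RPKM in KO libraries 6, 9 and 12, 3750.1, 4061 and 3967 RPKM in Het libraries 5, 8 and 11, and 3682, 3354, 3907 and 3871 RPKM in WT libraries 1, 4, 7 and 10. KO libraries held both the lowest and the highest of these values, and the genotypes overlapped. The difference was log2 0.01 in KO against WT (SE 0.14; 95% interval log2 -0.31 to 0.33; limma adjusted p = 0.999) and log2 0.10 in Het against WT (SE 0.14; limma adjusted p = 1.00). A protein-coding gene model on the same strand, Gm49369, overlaps Ctsd in the annotation and has no row in the files, so reads of the pair could not be told apart.

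Ctss, a cysteine protease that stays active at neutral pH and trims the invariant chain of MHC class II, lies on chromosome 3 (95526786 to 95556403, plus strand). It was at 3326, 2634 and 2374 RPKM in KO libraries 6, 9 and 12, 2880.1, 2609 and 3061 RPKM in Het libraries 5, 8 and 11, and 2722, 2655, 2936 and 2932 RPKM in WT libraries 1, 4, 7 and 10. The highest and the lowest level of all 10 were both in KO libraries, 6 and 12. Their mean of 2778 ± 492 RPKM in KO (SD, n = 3) was close to 2811 ± 145 RPKM in WT (SD, n = 4), with a fitted log2 difference of -0.0006 (SE 0.14; fold 1.00, 95% interval 0.810 to 1.23; limma adjusted p = 1.00). Without KO library 6 the difference was log2 -0.12 (SE 0.16).

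KO library 6 also had the largest Ctss level relative to Ctsd. The ratio of their RPKM was 1.02, 0.633 and 0.609 in KO libraries 6, 9 and 12, 0.768, 0.642 and 0.772 in Het libraries 5, 8 and 11, and 0.739, 0.792, 0.752 and 0.758 in WT libraries 1, 4, 7 and 10. The WT libraries lay close together, 2 KO libraries and a Het library lay below them, and KO library 6 lay above. In that library Ctss was the highest of 10 while Ctsd and Ctsl were the lowest of 10. The library also had the most neutrophil and monocyte marker RNA, whose part in these levels was not tested.

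**Figure D4:**
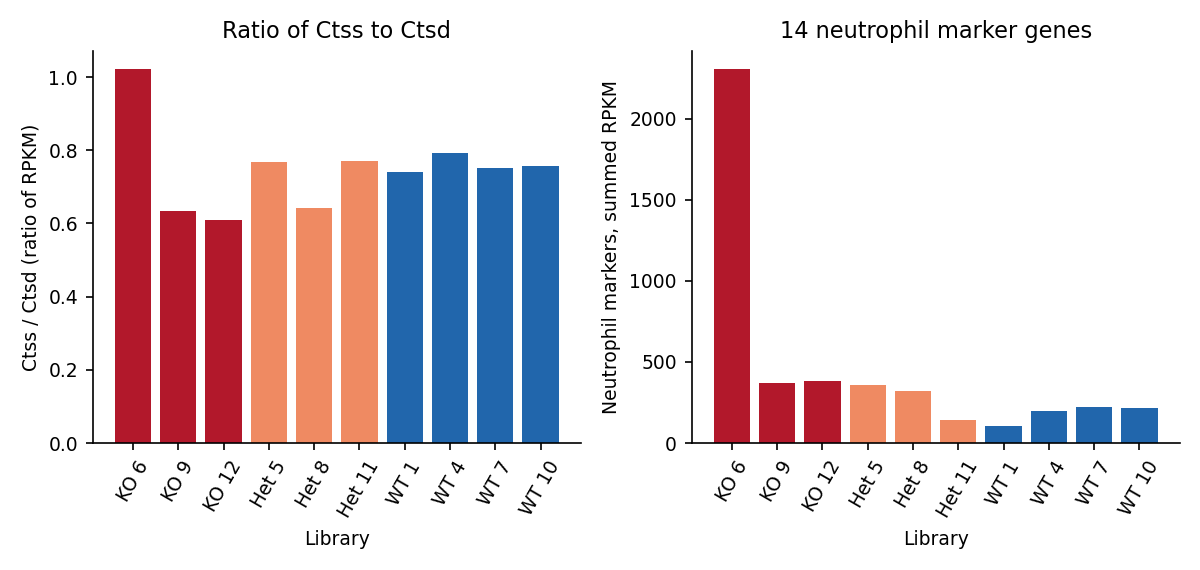
Left, ratio of Ctss to Ctsd RPKM in each library; right, summed RPKM of 14 neutrophil marker genes in each library; bars are single libraries, in red for KO, orange for Het and blue for WT. KO library 6 is highest in both (1.02 and 2303 RPKM), while KO libraries 9 and 12 have ratios of 0.633 and 0.609 with 372 and 382 RPKM of neutrophil markers.

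Ctsl, a cysteine endopeptidase with broad activity in lysosomes, had the largest fitted difference of the 9 in KO against WT over all 10 libraries. Without KO library 6, Ctsa (log2 0.30), Ctsh (-0.19), Ctsz (-0.17), Ctsd (0.13) and Ctss (-0.12) were farther from 0 than Ctsl (-0.11), and in Het against WT Lgmn, Ctsc, Ctsd and Ctsz were farther from 0. It lies on chromosome 13 (64359337 to 64370890, minus strand). Its level was 284, 328 and 329.7 RPKM in KO libraries 6, 9 and 12, 348, 353 and 355 RPKM in Het libraries 5, 8 and 11, and 369, 355 and 335 RPKM in WT libraries 1, 4 and 7, with 437 RPKM in WT library 10. Each KO library was below each Het and each WT library, whereas Het and WT libraries overlapped. Ctsl was the 1 member of 9 that was lower in KO than in WT without overlap, against 1.6% of all genes tested, and 0 of 9 were higher without overlap (2.99%). The level averaged 314 ± 26.2 RPKM in KO (SD, n = 3), 352 ± 3.93 RPKM in Het (SD, n = 3) and 374 ± 44.1 RPKM in WT (SD, n = 4), which put KO at 83.9% and Het at 94.1% of the WT mean. The difference in KO against WT was log2 -0.24 (SE 0.11; fold 0.844, 95% interval 0.713 to 0.9998; unadjusted p = 0.0498, limma adjusted p = 0.972) and did not pass. In KO against Het it was log2 -0.16 (SE 0.12; limma adjusted p = 0.999) and in Het against WT log2 -0.08 (SE 0.11; limma adjusted p = 1.00).

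The size of the Ctsl difference rested in part on single libraries. It was log2 -0.11 (SE 0.12) in KO against WT without KO library 6 and -0.17 (SE 0.10) without WT library 10, and in KO against Het it was -0.01 (SE 0.14) without KO library 6. Within the deeper libraries Ctsl averaged 329 RPKM in the 2 KO libraries, against 437 RPKM in the 1 WT library (log2 -0.41). Within the shallower set the 1 KO library held 284 RPKM, against 353 RPKM in the 3 WT libraries (log2 -0.32). With log2 depth as a covariate, an alternative chosen after the data were seen, the difference was log2 -0.31 (SE 0.09; limma adjusted p = 0.669). No test was run within either set.

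Ctsb, a cysteine protease that acts both within chains and as a dipeptide-removing carboxypeptidase, lies on chromosome 14 (63122462 to 63145923, plus strand). It was at 346, 355 and 365 RPKM in KO libraries 6, 9 and 12, 375, 377 and 371 RPKM in Het libraries 5, 8 and 11, and 369, 325, 361 and 435 RPKM in WT libraries 1, 4, 7 and 10. All KO libraries lay below all Het libraries, and both sets lay inside the WT range. Ctsb and Ctsl were thus the 2 of 9 members without overlap in KO against Het, where 7.42% of all genes had none, and 0 of 9 had none in Het against WT (4.53%). The Ctsb differences were log2 -0.05 in KO against WT (SE 0.10; fold 0.967, 95% interval 0.826 to 1.13; limma adjusted p = 0.999) and log2 -0.05 in KO against Het (SE 0.11; limma adjusted p = 0.999).

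Lgmn encodes legumain, a cysteine protease of a separate family that cuts after asparagine, converts several cathepsins to their processed forms and can cut tau and the amyloid precursor protein. It lies on chromosome 12 (102394084 to 102439813, minus strand). Lgmn stood at 450.4, 495 and 481 RPKM in KO libraries 6, 9 and 12, 425, 462 and 497 RPKM in Het libraries 5, 8 and 11, and 453, 558, 494 and 524 RPKM in WT libraries 1, 4, 7 and 10. All 3 KO and all 3 Het libraries were below the WT mean of 507 ± 44.6 RPKM, yet both overlapped the WT range. The differences were log2 -0.10 in KO against WT (SE 0.10; fold 0.932, 95% interval 0.796 to 1.09; limma adjusted p = 0.999) and log2 -0.12 in Het against WT (SE 0.10; fold 0.919, 95% interval 0.785 to 1.08; limma adjusted p = 1.00). Leaving out WT library 4 gave log2 -0.06 (SE 0.11) in KO against WT. In Het against WT the value was -0.08 (SE 0.12) without Het library 5 and -0.19 (SE 0.11) without Het library 11.

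The exopeptidases, which remove residues from the ends of chains, were at lower levels. Ctsh, an aminopeptidase, lies on chromosome 9 (90054152 to 90076089, plus strand). It was at 225, 232 and 188 RPKM in KO libraries 6, 9 and 12, 240.4, 226 and 209 RPKM in Het libraries 5, 8 and 11, and 222, 242, 245 and 211 RPKM in WT libraries 1, 4, 7 and 10. The lowest value was in KO library 12 and the rest overlapped (KO against WT log2 -0.11, SE 0.11; limma adjusted p = 0.999). The difference was log2 -0.0095 (SE 0.10) without KO library 12 and -0.19 (SE 0.13) without KO library 6.

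Ctsz, a carboxypeptidase that removes single residues, lies on chromosome 2 (174427493 to 174439039, minus strand). It stood at 167, 152 and 141 RPKM in KO libraries 6, 9 and 12, 189, 163 and 133 RPKM in Het libraries 5, 8 and 11, and 183, 161, 159.5 and 174 RPKM in WT libraries 1, 4, 7 and 10. Both the lowest and the highest level were in Het libraries. The difference in KO against WT was log2 -0.13 (SE 0.12; fold 0.917, 95% interval 0.765 to 1.10; limma adjusted p = 0.999).

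Ctsc, a dipeptidyl peptidase that activates the granule serine proteases of neutrophils, mast cells and lymphocytes, lies on chromosome 7 (88278085 to 88310888, plus strand). Its level was 113, 131 and 114 RPKM in KO libraries 6, 9 and 12, 111, 118 and 121 RPKM in Het libraries 5, 8 and 11, and 127, 116, 122 and 141 RPKM in WT libraries 1, 4, 7 and 10. The groups overlapped, and the highest level was in WT library 10. The differences were log2 -0.08 in KO against WT (SE 0.10; limma adjusted p = 0.999) and log2 -0.12 in Het against WT (SE 0.10; limma adjusted p = 1.00). Without KO library 6 the KO against WT difference was log2 -0.0037 (SE 0.12), and without KO library 9 it was -0.15 (SE 0.10). It was -0.0328 without WT library 10 and -0.1276 without WT library 4, and -0.0515 without KO library 12. The Het against WT difference was -0.0575 (SE 0.11) without WT library 10.

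Ctsa, a serine carboxypeptidase that also stabilises lysosomal beta-galactosidase and neuraminidase, lies on chromosome 2 (164832873 to 164841032, plus strand). It was at 118, 143 and 157 RPKM in KO libraries 6, 9 and 12, 124, 139.6 and 146 RPKM in Het libraries 5, 8 and 11, and 145, 109, 122 and 144 RPKM in WT libraries 1, 4, 7 and 10. The difference in KO against WT was log2 0.10 (SE 0.14; fold 1.07, 95% interval 0.874 to 1.32; limma adjusted p = 0.999). It was log2 0.30 without KO library 6 (SE 0.13; unadjusted p = 0.0486, limma adjusted p = 0.773). Ctsa was at 143 to 157 RPKM in the 4 deeper and 109 to 145 RPKM in the 6 shallower libraries, ranges that overlap, and 2 of the 3 KO libraries are deeper ones. With log2 depth as a covariate the KO against WT difference was log2 0.02 (SE 0.11; limma adjusted p = 0.994), and the part of depth in it was not tested otherwise. Within the deeper set the KO mean was log2 0.05 above the WT library, and within the shallower set the KO library was at log2 -0.09 relative to the WT mean. Neurl2 and Pltp overlap Ctsa on the opposite strand and reached at most 58.85 RPKM. Whether the counting used strand is not given, so some reads may be shared. The same holds for Fdft1 over Ctsb (at most 7.74 RPKM) and Nelfcd over Ctsz (at most 11.2 RPKM). Pseudogenes on the same strand lie over Ctsl (Gm49230) and Ctss (Hmgb1-ps5), and noncoding genes on the opposite strand over Ctsl (Gm47123) and Ctsc (Gm26522), none with a row in the files.

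No member passed between the sexes. By limma, 0 of 9 members passed in female against male libraries (0.044% of all genes did, 6 genes), and 0 of 9 had an unadjusted p under 0.05 (5.34% of all genes). limma-voom on recovered reads called 0 members and gave 1 unadjusted p under 0.05, for Ctss. Ctss was at 3326, 2880.1, 3061, 2722 and 2932 RPKM in female libraries KO 6, Het 5, Het 11, WT 1 and WT 10, and at 2634, 2374, 2609, 2655 and 2936 RPKM in male libraries KO 9, KO 12, Het 8, WT 4 and WT 7. The 2 highest values were in female and the 4 lowest in male libraries, while male WT library 7 lay among the female ones. The difference was log2 0.18 (SE 0.12; limma adjusted p = 0.922), and log2 0.09 (SE 0.13) without KO library 6. Over the other 8 members the 95% intervals of the fold change reached from 0.783 (Ctsd) to 1.26 (Ctsz).

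Upstream sequence was read from RefSeq windows of GRCm38.p6 that run from 250 bases before to 50 bases after a transcript start. Windows were at hand for 7 of the 9 members. Both motifs were chosen with the earlier results known. The letters CACGTG, read on both strands, form the core of the E-box bound by TFEB and related factors that drive lysosomal genes, and they were in the windows of 4 of 7 members, Ctsa, Ctsd, Ctsl and Lgmn. Among other lysosomal hydrolases 6 of 26 had them (23.1%), and 8.09% of all 27025 genes with a window did. The letters GAGGAAGT, an ETS-type sequence of the kind bound by the myeloid factor PU.1, were in the windows of Ctsc and Ctss (2 of 7 members), of 2 of 26 other hydrolases (7.69%) and of 3.69% of all genes. A match is a description of the letters and no evidence of binding. The stretches below are shown because they carry these matches, and run 5′ to 3′ on the gene's strand with the match in capitals. For Ctsc and Ctss the match is on the opposite strand, so the capitals read ACTTCCTC.
Ctsd, chr7:142387908-142387937, minus strand: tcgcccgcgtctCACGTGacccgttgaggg
Ctsd, chr7:142388055-142388077, minus strand: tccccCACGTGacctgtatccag
Ctsa, chr2:164833749-164833772, plus strand: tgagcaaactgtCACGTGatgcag
Lgmn, chr12:102439124-102439153, minus strand: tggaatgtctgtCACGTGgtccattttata
Ctsl, chr13:64370739-64370768, minus strand: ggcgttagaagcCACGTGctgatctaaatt
Ctsc, chr7:88277922-88277953, plus strand: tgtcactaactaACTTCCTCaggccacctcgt
Ctss, chr3:95526772-95526791, plus strand: aaatgaaagttcACTTCCTC

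The matches begin 98 and 245 bases before the RefSeq start in Ctsd, 12 in Ctsa, 49 in Lgmn and 236 in Ctsl. Those starts (142387827 in Ctsd, 164833773 in Ctsa, 102439092 in Lgmn and 64370520 in Ctsl) lie inside the GENCODE gene spans given above. The printed stretches of Ctsa, Lgmn and Ctsl and the first of Ctsd are thus also inside those spans, and the second of Ctsd is outside. Ctsa held another match, at base 6 of the transcript, which is not printed. In Ctsc the match begins 151 bases before the start, and in Ctss it begins 2 bases before it and runs across it. Of the most abundant members, Ctsd held CACGTG and Ctss held the ETS-type letters. Ctsa and Lgmn, which both held CACGTG, were at 109 to 157 and 425 to 558 RPKM. A relation between motif and level was not tested. Of the factors themselves, Tfeb and Tfe3 were picked after their values were seen, and Mitf and Tfec of the same list are not shown. Tfe3 had 49.9 (KO library 6) to 67.0 RPKM in KO libraries, against 56.6 to 66.4 RPKM in WT libraries. Tfeb was at 6.13 to 8.63 RPKM in KO and 5.23 to 6.08 RPKM in WT libraries. It was higher in KO without overlap, as were 2.99% of all genes tested. Neither factor was called by limma in any genotype comparison, and a link of their levels to the members was not tested.

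Other cathepsins were far less abundant than the 9. Of 14 listed, 5 passed the filter, and 0 of those 5 passed in any genotype comparison by limma, with 0 at an unadjusted p under 0.05 in each and 0 called by limma-voom. Ctso averaged 30.6 ± 2.94 RPKM in KO (SD, n = 3) and 33.1 ± 1.75 RPKM in WT (SD, n = 4), and Ctsf 29.6 ± 5.38 RPKM in KO and 27.1 ± 3.74 RPKM in WT. Ctse, an aspartic protease, had 2.39 ± 0.502 RPKM in KO and 2.02 ± 0.341 RPKM in WT. Ctsg, the granule protease of neutrophils, was at 0.258 RPKM in KO library 6 and at most 0.0221 RPKM in the other 9 libraries.

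No protease inhibitor passed the test, and the most abundant of them lay above every member. Of 14 listed, 8 were tested, and 0 were called in each genotype comparison by limma, with 0 called by limma-voom. In KO against WT 2 differences were positive and 6 negative (median log2 -0.19). At an unadjusted p under 0.05 there were 0 higher and 1 lower in KO against WT (5.13% of all genes, either direction). There were 0 in Het against WT (2.75%) and 1 lower in KO against Het (3.35%). Cst3, which encodes the secreted inhibitor cystatin C, had 8183, 9374 and 7949 RPKM in KO libraries 6, 9 and 12, against 8778, 8241, 9121 and 8645 RPKM in WT libraries 1, 4, 7 and 10, more than Ctsd in every library. Its difference was log2 -0.04 (SE 0.16; limma adjusted p = 0.999). Cstb, the intracellular inhibitor cystatin B, was the gene with the unadjusted p under 0.05, at 49.9 ± 2.62 RPKM in KO (SD, n = 3), 63.3 ± 8.15 RPKM in Het (SD, n = 3) and 60.4 ± 5.12 RPKM in WT (SD, n = 4). Its KO against WT difference of log2 -0.25 (SE 0.10; unadjusted p = 0.0342, limma adjusted p = 0.969) did not pass. Cstb was also the gene lower in KO against Het, with log2 -0.30 (SE 0.11; unadjusted p = 0.0241, limma adjusted p = 0.999), which did not pass. Each KO library was below each Het and each WT library. Of all genes tested, 1.6% were lower in KO than in WT without overlap, and 7.42% had no overlap in KO against Het, in either direction. Ctla2b, a relative of cathepsin propeptides, had 16.3 ± 3.71 RPKM in KO and 19.4 ± 1.85 RPKM in WT (log2 -0.30, SE 0.14; limma adjusted p = 0.977).

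Of sorting and control genes, 0 of 16 tested passed in each genotype comparison by limma, and 0 by limma-voom. In KO against WT their median was log2 -0.05, with 2 higher and 0 lower at an unadjusted p under 0.05 (5.13% of all genes, either direction). The other 2 comparisons had 0 at that threshold. Lamp1, a lysosomal membrane protein, was at 288 ± 6.94 RPKM in KO (SD, n = 3) and 289 ± 17.4 RPKM in WT (SD, n = 4). Lamp2 was at 162 ± 19.4 RPKM in KO and 172 ± 15.1 RPKM in WT, and the mannose 6-phosphate receptor M6pr at 113 ± 13.2 RPKM in KO and 120.1 ± 10.9 RPKM in WT. Gnptg, a subunit of the enzyme that adds the mannose 6-phosphate tag, had the smallest p of the list, at 22.6 ± 1.05 RPKM in KO and 17.2 ± 3.86 RPKM in WT (log2 0.46, SE 0.16; unadjusted p = 0.0183, limma adjusted p = 0.942). It did not pass.

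Genes whose products these proteases process numbered 8, and 0 of them passed by limma or limma-voom in any genotype comparison. In KO against WT their median was log2 -0.09, with 0 higher and 1 lower at an unadjusted p under 0.05 (5.13% of all genes, either direction). The other 2 comparisons had 0 at that threshold. Cd74, the invariant chain that Ctss trims, varied widely, from 572 to 1332 RPKM in KO, 770 to 1424 RPKM in Het and 732 to 1097 RPKM in WT libraries. Grn, the precursor of granulins, had 398 ± 48.1 RPKM in KO (SD, n = 3) and 391 ± 75.7 RPKM in WT (SD, n = 4), and Psap, the precursor of saposins, had 259 ± 22.4 RPKM in KO and 282 ± 23.0 RPKM in WT. Tlr9, a DNA sensor that is cut by lysosomal proteases before it signals, had the smallest p, at 59.7 ± 9.14 RPKM in KO and 71.0 ± 1.27 RPKM in WT (log2 -0.28, SE 0.12; unadjusted p = 0.0331, limma adjusted p = 0.969). Beside these lists, 31 of 32 other lysosomal hydrolases were tested, with 0 called by limma or limma-voom. In KO against WT 0 were higher and 4 lower at an unadjusted p under 0.05 (5.13% of all genes, either direction). Their median there was log2 -0.04, where the 9 proteases had -0.08. The difference between these lists was not tested.

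The mean profile of the 9 genes over the 10 libraries was compared with 10454 other genes of at least 1 RPKM in every library. The measure was the root mean square difference of standardised log2 levels. The profile was highest in WT library 10 and lowest in KO library 6, followed by KO library 12. Each gene had the same weight in it, so it differs from the summed level. That sum was lowest in WT library 4 (7874 RPKM), with 8287 RPKM in KO library 6, where Ctss was at its highest. Closest were Myo1e, an unconventional myosin (0.411 SD units), Mipep, a mitochondrial peptidase (0.501), Zfx, an X-linked transcription factor (0.503), Harbi1 (0.546) and Man1b1, a mannosidase of glycoprotein quality control (0.547), where the median gene stood at 1.39. The members themselves stood at 0.480 (Ctsc) to 1.39 (Ctsh). Each member is part of the profile, which draws its own distance down, so these values cannot be ranked beside those of other genes. Even so, Ctsh and Ctss (1.34) stood near the median gene.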

How the data were processed

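RPKM values were computed by the authors and deposited per gene name and library. Per the submitters' processing notes, the tools were STAR, HTSeq, edgeR and limma, with mm10 as the genome build. Settings and annotation are not given in the sources. Of 24060 names per file, 27 had become dates and were left out. Each of 19983 genes above 0 gave whole reads in all libraries (100%; tolerance 0.0005 reads or 3e-07 of the value).

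With limma 3.58.1 in R 4.3.3, log2(RPKM + 0.5) was fitted over the 10 libraries with genotype and sex as terms (limma-trend, two-sided, Benjamini-Hochberg over 13621 genes, threshold 0.05). A gene needed 0.5 RPKM or more in 3 libraries. Fold changes are on that log2 scale and understate changes of low genes. The code was tested on simulated data. Alternatives were other pseudocounts, no filter, median-ratio scaling, limma-voom on recovered reads (library totals, since the planned TMM factors were not computed), no sex term, sample quality weights, each library left out and, chosen after seeing the data, a depth covariate. limma-voom called 2, 1, 1 and 6 genes in KO against WT, Het against WT, KO against Het and female against male. Positions are from GENCODE M21 (GRCm38) and upstream sequence from RefSeq (GRCm38.p6).

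The members, gene lists and tests were chosen with earlier results of these data known. Named were the members, Trem2, up to 3 most abundant genes and the gene with the smallest KO against WT p of each list, called genes, and the 5 genes nearest in profile. Tfeb, Tfe3, Ctsg, Elane and Mpo were named after their values were seen.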

Additional observations from a re-analysis of the deposited data

How the results depend on the processing

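Under 8 alternatives and 10 fits that each left out a library, 0 of 9 members were called in any comparison (639 values, lowest adjusted p = 0.669). Of 36 member differences 14 kept their sign in every fit and 22 changed it in at least 1, the largest of them log2 0.10 in size in the reported fit. None of these was called, and the cause of the changes was not tested. Counts of all genes called in KO against WT were 2 with limma-voom, 2 with quality weights, 2 with the depth covariate and 1 to 3 with a library left out (3 without KO library 6). In Het against WT limma-voom called 1 gene, and in KO against Het the depth covariate gave 2. No paired analysis was run, because the labels name no pairs, litters or blocks of libraries.

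Signs turned as follows (log2). For KO against WT, median-ratio scaling gave -0.0255 for Ctsd, limma-voom 0.0002 for Ctss and the depth covariate -0.0371 for Ctsd and 0.0263 for Ctss. For Het against WT, limma-voom gave -0.0038 for Ctsb, quality weights -0.0497 for Ctsb and 0.0073 for Ctss and the fit without a sex term 0.0179 for Ctss. For KO against Het, median-ratio scaling gave -0.0051 for Ctsa, -0.0232 for Ctss and -0.0151 for Lgmn. There the depth covariate gave -0.0831 for Ctsa, -0.0181 for Ctsc, 0.0498 for Ctsz and -0.0345 for Lgmn, and Ctss was at -0.0482 without a sex term and -0.0268 with quality weights. For female against male, median-ratio scaling gave -0.0079 for Ctsa and -0.0031 for Ctsl, and the depth covariate -0.0145 for Ctsa and -0.0010 for Ctsl.

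With each library left out in turn, KO against WT ranged from -0.0006 to 0.3015 for Ctsa, -0.1134 to 0.0221 for Ctsb, -0.0729 to 0.1270 for Ctsd and -0.1249 to 0.0757 for Ctss. Het against WT ranged from -0.0039 to 0.1456 for Ctsa, -0.0466 to 0.0885 for Ctsb, -0.0795 to 0.0205 for Ctsh, -0.1302 to 0.0110 for Ctsl, -0.0714 to 0.0392 for Ctss and -0.1997 to 0.0520 for Ctsz. KO against Het ranged from -0.0601 to 0.2523 for Ctsa, -0.0799 to 0.0282 for Ctsb, -0.0292 to 0.1254 for Ctsc, -0.1479 to 0.0421 for Ctsd, -0.1770 to 0.0062 for Ctsh, -0.1286 to 0.0817 for Ctss, -0.1659 to 0.0664 for Ctsz and -0.0256 to 0.0829 for Lgmn. Female against male ranged from -0.0526 to 0.1739 for Ctsa, -0.0111 to 0.0923 for Ctsc, -0.1432 to 0.0067 for Ctsd and -0.0419 to 0.1275 for Ctsl.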
